A study of Mus musculus with 18 samples.

Results

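Connexins are membrane proteins that assemble into hexameric channels, and the channels of neighbouring cells dock to form gap junctions through which ions and small metabolites pass between cells. In the inner ear, gap junctions join the supporting cells of the sensory epithelia and the fibrocytes of the connective tissue into networks that are held to return potassium to the endolymph, and human mutations of GJB2 are a common cause of inherited deafness. Other connexins join the cells of arteries, glia and neurons. The 8 connexin genes described here are Gjb2, Gjb6, Gja1, Gja4, Gja5, Gjc3, Gjb1 and Gjd2. They were taken as a list of gene symbols from the platform annotation of the arrays, with 1 probe set per gene, and all 8 of the 8 listed were measured among the 19938 genes tested.

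The study measured RNA of the vestibular organ, the balance organ of the inner ear, on 18 Affymetrix Mouse Gene 1.1 ST arrays. The groups were Igf1 -/- (null) and Igf1 +/+ (wild type) mice at E18.5, shortly before birth, and at postnatal days 15 (P15) and 90 (P90). Each of these 6 groups had 3 arrays. All the mice had a hybrid Mf1 and 129/sv background and were perfused with paraformaldehyde before dissection of the inner ear, from which RNA was extracted with Trizol. The labels call the arrays of a group biological replicates without saying whether each held 1 animal or a pool. Sex-linked signal differed among the P15 null arrays, with Xist, the RNA of the inactive X chromosome, at 7.61, 8.09 and 4.09. Their Y-linked mean was 5.69, 3.29 and 6.31, so these arrays held RNA of different sex make-up. The p-values cover only the spread seen among the arrays, and how much of it is technical is unknown. Levels are quantile-normalised log values and differences are in log units with their standard error (SE). The sources used here do not name the base of the logarithm; a log unit stands for a 2.7-fold change in natural logs and a 2-fold change in base 2. A difference was called when the Benjamini-Hochberg adjusted p of limma's moderated test, over all 19938 genes, was under 0.05. Levels of different probe sets are not comparable, so levels were compared only within a gene, across groups.

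Age separated the arrays most, on a first principal component with 63.6% of the variance. The arrays null 2 and 3 of E18.5 and wild type 1 and 2 of P90 stood apart on the third component, which held 5.46%. The Igf1 level was 6.40 to 6.88 in the E18.5 null, against 6.98 to 7.07 in wild type, 5.42 to 5.69 in the P15 null, against 5.87 to 6.11 in wild type, and 5.31 to 5.51 in the P90 null, against 5.39 to 5.63 in wild type, where the arrays overlapped. No Igf1 difference passed the test (adjusted p = 0.160 at E18.5), and the sources used here do not say where the Igf1 probes lie relative to the deletion. The description of the P15 and P90 wild-type samples names the null genotype, whereas their titles, source names and genotype fields say wild type, which was followed. Of 10 hair cell markers, all were measured, but Pou4f3, which specifies hair cells, lay under a rough guide to dim genes (3.49) in all groups but the E18.5 wild type, and the hair-bundle gene Strc in all 6. Marker lists of surrounding tissue also differed between the groups. At E18.5 the mean of 10 skeletal muscle genes was 6.71 to 7.19 in the null, against 5.85 to 6.32 in wild type, and that of 5 osteoblast genes was 4.98 to 5.27 in the null, against 5.80 to 5.94 in wild type. In such whole-tissue RNA, fewer cells of a type and less RNA per cell cannot be told apart.

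Gjb2 and Gjb6, whose products are the main connexins of the inner ear's supporting cells and fibrocytes, are neighbouring protein-coding genes on chromosome 14 in RefSeq's annotation. Both were higher at P90 than at E18.5 in both genotypes, though the wild-type Gjb2 difference turned to -0.08 with array medians subtracted. Gja4 and Gja5, the connexins of arterial endothelium, were both lower at P90 than at E18.5, though the null Gja4 difference turned to 0.33 in the values as deposited. The 250 bases upstream of the annotated start of these 4 genes are shown because each pair moved in 1 direction over age, with the scaling limits just given. The sequences are RefSeq's of GRCm38.p6, 5′ to 3′ along the gene, for Gjb2 (chr14:57104703-57104952, minus strand), Gjb6 (chr14:57133612-57133861, minus strand), Gja4 (chr4:127314040-127314289, minus strand) and Gja5 (chr3:97032152-97032401, plus strand). Capitals mark the GC box, searched as GGGCGG or its reverse complement CCGCCC.
Gjb2: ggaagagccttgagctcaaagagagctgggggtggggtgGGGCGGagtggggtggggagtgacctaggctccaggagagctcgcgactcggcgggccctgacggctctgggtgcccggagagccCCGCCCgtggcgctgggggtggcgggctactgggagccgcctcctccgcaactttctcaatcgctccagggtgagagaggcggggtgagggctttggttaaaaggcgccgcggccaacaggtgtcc
Gjb6: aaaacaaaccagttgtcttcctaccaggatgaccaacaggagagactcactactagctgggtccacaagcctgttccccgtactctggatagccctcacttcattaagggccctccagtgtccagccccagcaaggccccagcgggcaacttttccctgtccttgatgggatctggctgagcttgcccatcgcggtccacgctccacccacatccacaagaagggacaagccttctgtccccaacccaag
Gja4: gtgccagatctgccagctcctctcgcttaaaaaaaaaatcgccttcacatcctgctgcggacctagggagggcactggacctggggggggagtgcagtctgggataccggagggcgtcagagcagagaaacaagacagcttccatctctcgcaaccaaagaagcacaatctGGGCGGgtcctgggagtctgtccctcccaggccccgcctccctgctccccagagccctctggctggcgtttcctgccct
Gja5: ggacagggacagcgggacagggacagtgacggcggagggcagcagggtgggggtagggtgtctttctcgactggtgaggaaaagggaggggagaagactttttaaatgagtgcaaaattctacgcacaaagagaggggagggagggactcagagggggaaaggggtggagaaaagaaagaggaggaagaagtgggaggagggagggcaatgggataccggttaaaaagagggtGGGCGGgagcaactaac
The Gjb2 window held 2 GC boxes, a GC content of 69.2% and 18 CpG dinucleotides. Its neighbour's, that of Gjb6, held 0 GC boxes, 56.8% GC and 5 CpG. The Gja4 and Gja5 windows held 1 GC box each, with 9 and 7 CpG. Among all 32817 promoter windows of the same length, 32.7% held a GC box, and the medians were 52.4% GC and 6 CpG. The TATA box TATAAA, present in 12.4% of all windows, and the sequence CCAAT, present in 33.8%, were found on neither strand of these 4 windows. These matches describe letters only.

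Most of the 8 connexins changed between E18.5 and P15 in both genotypes, and none passed the test between genotypes. From E18.5 to P15, 7 of 8 were called in the null and 6 of 8 in wild type, against 40.8% and 41.5% of all genes. In the null 5 were higher and 2 lower (20.3% and 20.5% of all genes), with a median difference over the 8 of 0.40 (all genes, -0.04). In wild type 4 were higher and 2 lower (19.7% and 21.9% of all genes), with a median of 0.40 (all genes, -0.05). From P15 to P90, 3 of 8 were called in each genotype, 1 higher and 2 lower, against 13% of all genes in the null (6.12% higher and 6.83% lower) and 17.9% in wild type (8.08% higher and 9.78% lower). Over the whole span, a comparison added after seeing the data, 6 of 8 were called in each genotype, 4 higher and 2 lower, against 44.9% of all genes in the null (22.7% higher and 22.2% lower) and 50.4% in wild type (23.6% higher and 26.8% lower). These comparisons share arrays: the P15 arrays enter both steps. Sex-linked signal also differed between the wild-type ages. By limma, Xist had -4.08 ± 0.80 (adjusted p = 0.00414) for P90 minus P15 in wild type. For P90 minus E18.5 in wild type it had -4.95 ± 0.80 (adjusted p = 9.33e-05). The parts of sex and of age in the wild-type differences that involve P90 cannot be told apart.

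**Figure D1:**
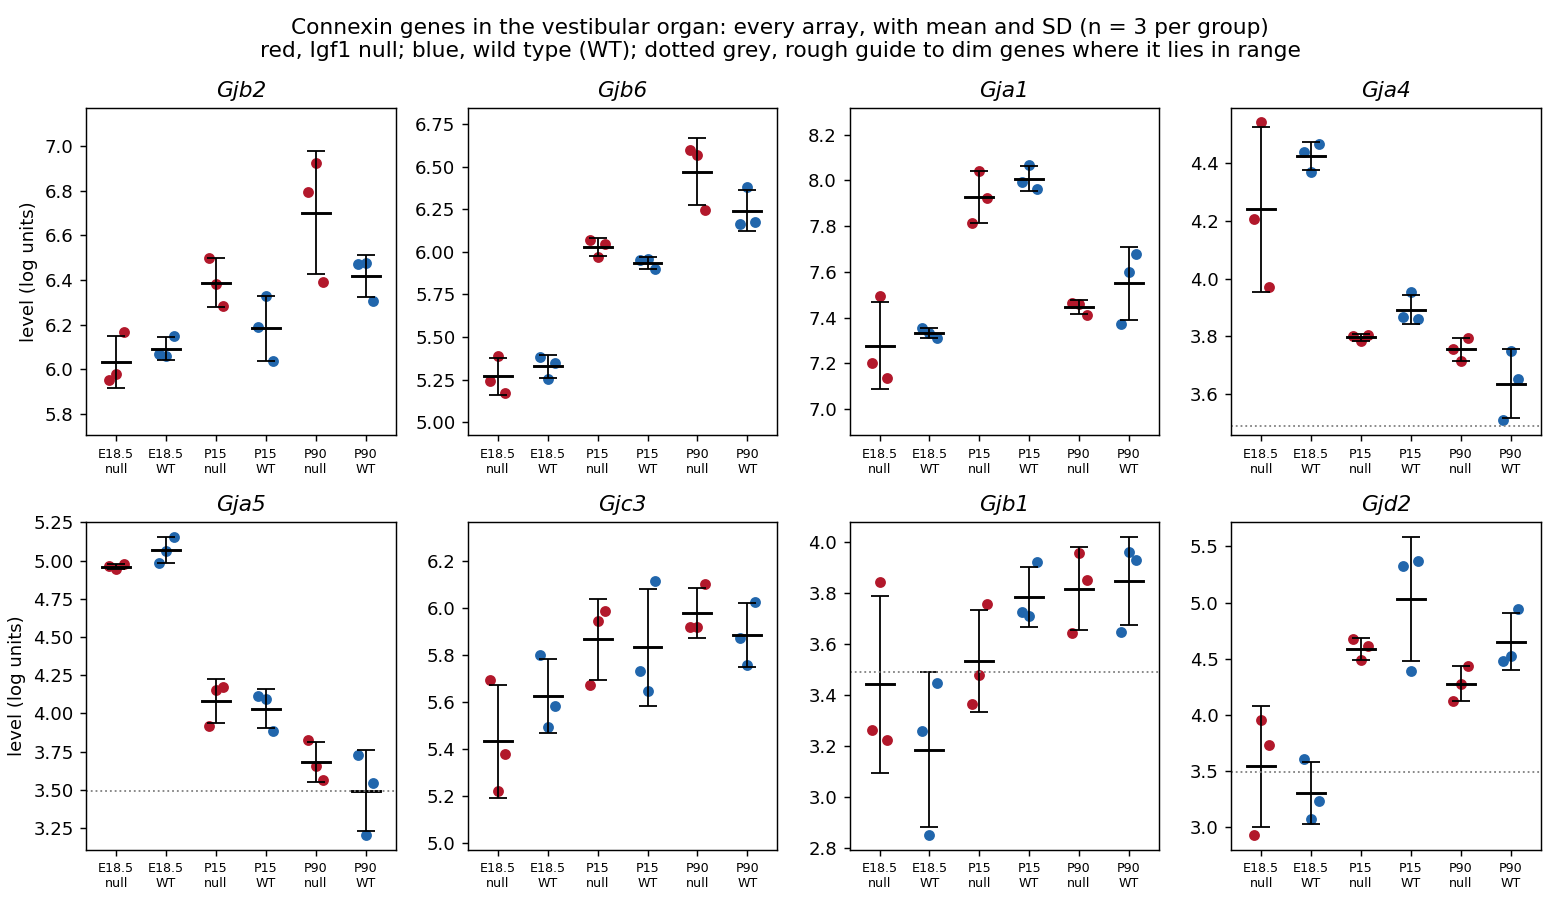
Level of each connexin gene (log units) in every array, by age and genotype, null in red and wild type in blue; bars give the mean and SD of 3 arrays, and the dotted line is the rough guide to dim genes at 3.49 where it lies in range. Gjb6 stands higher and Gja5 lower at each later age in both genotypes, Gja1 is highest at P15, and no genotype difference passed the test. The second Gja5 step in the null turned to 0.10 in the values as deposited, where the all-gene median moved by 0.39. The second Gjb6 step was not called in either genotype with array medians subtracted.

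Gjb2 (probe set 10420362) rose between E18.5 and P15 in the null. At E18.5 the Gjb2 level was 5.95, 5.98 and 6.17 in the null arrays, against 6.07, 6.06 and 6.15 in the wild-type arrays. At P15 it was 6.50, 6.38 and 6.28 in the null, against 6.19, 6.33 and 6.04 in wild type. At P90 it was 6.79, 6.92 and 6.39 in the null, against 6.47, 6.48 and 6.31 in wild type. The 3 null arrays of P15 all lay above those of E18.5, while the wild-type arrays of these ages overlapped. The difference P15 minus E18.5 was 0.36 ± 0.12 (adjusted p = 0.0275) in the null and 0.09 ± 0.12 (adjusted p = 0.579) in wild type. The genotypes' steps differed by 0.26 ± 0.17 (95% interval -0.10 to 0.63, adjusted p = 0.685), so a difference between the genotypes in this step was not shown. P90 minus P15 was 0.31 ± 0.12 (adjusted p = 0.106) in the null and 0.23 ± 0.12 (adjusted p = 0.188) in wild type, and the null value was called without P90 array 3 (0.47, adjusted p = 0.0109) and in the values as deposited (0.52, adjusted p = 0.0194). From E18.5 to P90 Gjb2 rose by 0.67 ± 0.12 (adjusted p = 0.000291) in the null and by 0.33 ± 0.12 (adjusted p = 0.0341) in wild type. The wild-type value turned to -0.08 when array medians were subtracted in place of quantile normalisation, a scaling in which the median of all genes moved by -0.17, and it was not called without any 1 of the 3 E18.5 arrays or of P90 arrays 1 and 2 (adjusted p up to 0.0969). In the null the first step was not called without E18.5 array 1 or 2 or P15 array 1 or 2, with differences from 0.30 to 0.36.

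Gjb6 (probe set 10420366) rose in both steps and both genotypes. At E18.5 the Gjb6 level was 5.24, 5.39 and 5.17 in the null arrays, against 5.38, 5.25 and 5.35 in the wild-type arrays. The P15 level was 6.07, 5.97 and 6.04 in the null, against 5.95, 5.96 and 5.90 in wild type. The P90 level was 6.60, 6.57 and 6.25 in the null, against 6.17, 6.38 and 6.18 in wild type. The arrays of the 3 ages did not overlap in either genotype. P15 minus E18.5 was 0.76 ± 0.10 (adjusted p = 1.09e-05) in the null and 0.61 ± 0.10 (adjusted p = 8.84e-05) in wild type. The second step, P90 minus P15, was 0.44 ± 0.10 (adjusted p = 0.00681) in the null and 0.31 ± 0.10 (adjusted p = 0.037) in wild type. Over the whole span the difference was 1.20 ± 0.10 in the null, a fold of 3.33 with base e or 2.3 with base 2, and 0.92 ± 0.10 in wild type, a fold of 2.5 with base e or 1.89 with base 2. The first step held its call in both genotypes under every scaling and every left-out array. The second step did not: with array medians subtracted it was 0.26 in the null (adjusted p = 0.116) and 0.02 in wild type (adjusted p = 0.882), and in wild type it was lost without any 1 of the 3 P15 or of P90 arrays 1 and 2 (adjusted p up to 0.169).

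At P90, Gjb2 and Gjb6 followed one another among the null arrays. Arrays 1 and 2 were high for both genes and array 3 was low for both, close to the wild-type arrays. Over all 18 arrays their levels correlated at r = 0.86, and at r = 0.56 once each group's mean was removed; this is a description, over arrays that share age and genotype. The gene most like Gjb2 over the 18 arrays was Coch (r = 0.911), which encodes an extracellular protein of inner-ear fibrocytes, followed by Gbp2b and Itih2 (r = 0.894 and 0.893). The 5 otic fibrocyte markers as a list, Coch included, correlated with Gjb2 at r = -0.29 and with Gjb6 at r = -0.67 over the same arrays. Those most like Gjb6 were Flvcr1, Sfrp4 and Tprkb (r = 0.976, 0.97 and 0.968). The mean of 5 otic fibrocyte markers was 6.22, 6.34 and 5.85 in P90 null arrays 1, 2 and 3, in the same pattern, against 5.62 to 5.75 in the wild-type arrays. That of 11 endothelial markers was 5.40, 5.54 and 5.21 in these null arrays, against 5.32 to 5.40 in the wild-type arrays. Within groups the endothelial list correlated with Gjb2 at r = 0.77 and with Gjb6 at r = 0.63, and the fibrocyte list at 0.65 and 0.40. Other lists came about as close to Gjb2 within groups, with r = 0.70 for cell cycle genes, 0.68 for osteoblasts and 0.64 for B cells. For Gjb6, osteoblasts had 0.50 and adipocytes 0.42. All 5 fibrocyte markers had a positive null minus wild-type difference at P90 (median 0.46) and none was called; Coch came nearest, at 0.46 ± 0.09 (adjusted p = 0.0513). Of 10 hair cell markers, 7 had a positive difference and 1 was called, Ocm, a calcium-binding protein of hair cells (0.73 ± 0.15 (adjusted p = 0.049), with a wild-type level under the dim guide). Of 9 supporting cell markers, 6 had a positive difference and none was called. Otog and Tectb, which encode proteins of the acellular membranes, had 0.55 ± 0.17 and 0.46 ± 0.15 with arrays that did not overlap. Cyp26b1 had the lowest p of the list and went the other way, at -0.252 ± 0.075 (adjusted p = 0.221), also without overlap. Among all genes, 10.5% had arrays that did not overlap between the genotypes at P90. The part of fibrocyte, endothelial, sensory, nerve or brain tissue content in the Gjb2 and Gjb6 values was not tested.

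The lists of the cells that carry these connexins did not share their direction as a whole. Of 5 otic fibrocyte markers, 2 rose and 3 fell from E18.5 to P15 in each genotype, and Coch was among those that rose (0.64 ± 0.09 in the null, 0.30 ± 0.09 in wild type). From E18.5 to P15, 6 of 9 supporting cell markers fell and 1 rose in the null, and 5 fell and 1 rose in wild type. Fgfr3, a growth factor receptor of supporting cells, was among those that fell (-1.55 ± 0.10 in the null, -1.60 ± 0.10 in wild type), and Sparcl1, which encodes a matrix protein, was the one that rose (0.69 ± 0.07 in the null, 0.59 ± 0.07 in wild type). Of 7 genes of dark cells and endolymph potassium transport, 3 rose and 2 fell in the null, and 2 rose and 4 fell in wild type. Atp1b2, a subunit of the sodium-potassium pump, and Kcnj10, a potassium channel, rose in both genotypes. Atp1b2 had 1.24 ± 0.14 in the null and 1.41 ± 0.14 in wild type, and Kcnj10 had 0.72 ± 0.10 in the null and 0.78 ± 0.10 in wild type. Kcnq1 and Slc26a4 fell in both genotypes. Kcnq1 had -0.325 ± 0.098 in the null and -0.275 ± 0.098 in wild type, and Slc26a4 had -0.51 ± 0.16 and -0.53 ± 0.16. In wild type Kcne1 also fell (-0.50 ± 0.12), and Bsnd fell to a mean under the dim guide.

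Gja1 (probe set 10363173), the most widely expressed connexin gene, which serves supporting cells, fibrocytes, astrocytes and osteoblasts, peaked at P15. At E18.5 the Gja1 level was 7.20, 7.50 and 7.14 in the null arrays, against 7.36, 7.33 and 7.31 in the wild-type arrays. At P15 it was 7.82, 8.04 and 7.92 in the null, against 7.99, 8.07 and 7.96 in wild type. At P90 it was 7.47, 7.46 and 7.41 in the null, against 7.37, 7.60 and 7.68 in wild type. All P15 arrays of both genotypes lay above all arrays of the other ages. The first step, P15 minus E18.5, was 0.65 ± 0.10 (adjusted p = 6.8e-05) in the null and 0.68 ± 0.10 (adjusted p = 4.13e-05) in wild type, and both calls held under every scaling and every left-out array. P90 minus P15 was -0.48 ± 0.10 (adjusted p = 0.00497) in the null and -0.46 ± 0.10 (adjusted p = 0.00654) in wild type. In the null the second step shrank to -0.28 (adjusted p = 0.22) in the values as deposited, where the median of all genes moved by 0.39, and in wild type it was not called in a fit of only the arrays compared (adjusted p = 0.0543), with a sex score (adjusted p = 0.0651) or with a term for the 4 arrays apart (adjusted p = 0.0545). P90 minus E18.5 was 0.17 ± 0.10 (adjusted p = 0.179) in the null and 0.22 ± 0.10 (adjusted p = 0.0774) in wild type, and turned to -0.19 in the null and -0.37 in wild type (adjusted p = 0.0194 in wild type) with array medians subtracted. It was called in the null without E18.5 null array 2 (0.28, adjusted p = 0.0251), and in wild type without that array (adjusted p = 0.04) or without P90 array 1 (0.31, adjusted p = 0.0205).

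The levels of Gja1 ran with those of bone genes. The mean of 5 osteoblast markers was 4.98 to 5.27 at E18.5, 7.38 to 7.70 at P15 and 5.98 to 6.55 at P90 in the null, and 5.80 to 5.94, 7.10 to 7.61 and 6.33 to 6.39 at these ages in wild type. All 5 rose from E18.5 to P15 and all 5 fell from P15 to P90 in both genotypes. Dmp1, a matrix protein of bone, had 3.83 ± 0.20 in the null and 2.47 ± 0.20 in wild type at the first step. Over the 18 arrays Gja1 correlated with the osteoblast list at r = 0.92 and with 5 B cell markers at r = 0.92, and within groups at 0.44 and -0.13. The single genes most like it were Ppm1e (r = 0.967), Grin2b (r = 0.944), an NMDA receptor subunit of neurons, and Cdh2 (r = 0.94), a cell adhesion protein. The part of bone or marrow content in the Gja1 values was not tested.

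Gja4 (probe set 10516481), a connexin gene of arterial endothelium, fell between E18.5 and P15. At E18.5 the Gja4 level was 4.21, 4.54 and 3.97 in the null arrays, against 4.44, 4.37 and 4.47 in the wild-type arrays. The P15 level was 3.80, 3.78 and 3.81 in the null, against 3.87, 3.95 and 3.86 in wild type. The P90 level was 3.76, 3.71 and 3.79 in the null, against 3.51, 3.75 and 3.65 in wild type. The E18.5 arrays of both genotypes lay above all later arrays, and null arrays 1 to 3 of E18.5 were more spread than the wild-type ones (SD 0.29 against 0.05, n = 3 each). P15 minus E18.5 was -0.44 ± 0.11 (adjusted p = 0.00378) in the null and -0.53 ± 0.11 (adjusted p = 0.000879) in wild type. The null step was -0.29 (adjusted p = 0.0148) without E18.5 array 2 of the null. In the values as deposited these steps were -0.14 in the null (adjusted p = 0.598) and -0.33 in wild type (adjusted p = 0.217), with all-gene medians of 0.25 and 0.11. The second step, P90 minus P15, was -0.04 ± 0.11 (adjusted p = 0.855) in the null and -0.26 ± 0.11 (adjusted p = 0.11) in wild type, and in the values as deposited it turned to 0.47 in the null and 0.18 in wild type. The wild-type value was called without E18.5 null array 2 (adjusted p = 0.0351). From E18.5 to P90 the difference was -0.49 ± 0.11 in the null and -0.79 ± 0.11 in wild type, with the null value turned to 0.33 in the values as deposited, where the all-gene median moved by 0.67.

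The spread of Gja4 among the E18.5 null arrays went with neuronal markers. The mean of 9 neuronal markers was 5.25, 5.80 and 4.74 in null arrays 1, 2 and 3, in the order of their Gja4 levels, against 4.83 to 4.97 in the wild-type arrays. Array 2 was also the highest for 6 adipocyte markers (5.67, against 3.64 in array 1 and 3.27 in array 3). With each group's mean removed, Gja4 correlated with the neuronal list at r = 0.87 and with Gja1 at r = 0.76 over the 18 arrays. With group means kept, these were -0.82 and -0.38. The SD of Gja4 was 0.29 in the E18.5 null, against 0.013 to 0.12 in the other groups (n = 3 each), so the E18.5 null arrays weigh most in the former values. What the E18.5 null arrays share beyond their group was not tested. The genes most like Gja4 were Gbgt1, Rrp1b and Tsga13 (r = 0.934, 0.93 and 0.927).

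Gja5 (probe set 10494548), the gene of a connexin of arterial endothelium and the heart's conduction system, fell from E18.5 to P15 in both genotypes. At E18.5 the Gja5 level was 4.96, 4.94 and 4.98 in the null arrays, against 4.99, 5.06 and 5.16 in the wild-type arrays. At P15 it was 3.92, 4.16 and 4.17 in the null, against 4.11, 4.10 and 3.88 in wild type. At P90 it was 3.83, 3.65 and 3.57 in the null, against 3.73, 3.21 and 3.55 in wild type. The arrays of the 3 ages did not overlap in either genotype, and the P90 wild-type mean lay at the guide to dim genes. The first step, P15 minus E18.5, was -0.88 ± 0.12 (adjusted p = 2.51e-05) in the null and -1.04 ± 0.12 (adjusted p = 3.86e-06) in wild type, and both calls held under every scaling and every left-out array. P90 minus P15 was -0.40 ± 0.12 (adjusted p = 0.0381) in the null and -0.54 ± 0.12 (adjusted p = 0.00805) in wild type. The second step in the null turned to 0.10 in the values as deposited, where the median of all genes moved by 0.39 and Gja5 lay at -0.29 relative to it, and it was lost without E18.5 wild-type array 2, without P15 array 2 or 3 and without P90 array 2 or 3 of the null (adjusted p up to 0.139). In wild type it was -0.12 (adjusted p = 0.691) in the values as deposited. The wild-type call was also lost with only the arrays compared, with a sex score and with a term for the 4 arrays apart. Over the whole span the difference was -1.28 ± 0.12 in the null, a fold of 0.278 with base e or 0.412 with base 2, and -1.58 ± 0.12 in wild type, where the P90 level at the guide leaves the fold inexact.

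The mean of 11 endothelial markers was 5.57 to 5.72 at E18.5, 5.47 to 5.52 at P15 and 5.21 to 5.54 at P90 in the null, and 5.56 to 5.59, 5.36 to 5.52 and 5.32 to 5.40 in wild type, and all 11 lay above the dim guide in all 6 groups. From E18.5 to P15, 3 fell and 1 rose in the null and 4 fell and 1 rose in wild type, with medians of -0.16 and -0.15. Emcn, a sialomucin of venous and capillary endothelium, had -0.54 ± 0.12 in the null and -0.62 ± 0.12 in wild type. Of 9 arterial and mural cell markers, 3 rose and 3 fell in the null, and 3 rose and 4 fell in wild type. Efnb2, an arterial ligand, fell (-0.64 ± 0.08 in the null, -0.88 ± 0.08 in wild type), and Hey1, a Notch target, rose (0.94 ± 0.07 in the null, 0.75 ± 0.07 in wild type). Over the 18 arrays Gja5 correlated with the endothelial list at r = 0.81 and with the arterial and mural list at r = 0.59, and within groups at 0.31 and 0.25. It ran closer with lists of other cells, at r = 0.90 with supporting cells, 0.84 with otic fibrocytes and -0.95 with central myelin. Its most similar genes were Nid2 (r = 0.992), a basement membrane protein, Mest (r = 0.987), an imprinted gene of fetal tissue, and Slc2a10 (r = 0.987), a sugar transporter. Gja4 and Gja5 correlated at r = 0.88 over all arrays and at r = -0.28 within groups. The part of vessel content was not tested.

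Gjc3 (probe set 10534960), a connexin gene of myelinating Schwann cells and oligodendrocytes, rose between E18.5 and P15 in the null, a call that several alternatives removed. At E18.5 the Gjc3 level was 5.69, 5.22 and 5.38 in the null arrays, against 5.80, 5.49 and 5.58 in the wild-type arrays. The P15 level was 5.67, 5.94 and 5.99 in the null, against 5.73, 5.65 and 6.11 in wild type. The P90 level was 5.92, 5.92 and 6.10 in the null, against 5.87, 5.76 and 6.03 in wild type. The arrays of neighbouring ages overlapped in both genotypes. P15 minus E18.5 was 0.43 ± 0.14 (adjusted p = 0.0245) in the null and 0.21 ± 0.14 (adjusted p = 0.276) in wild type, and the steps differed by 0.23 ± 0.20 (95% interval -0.20 to 0.66, adjusted p = 0.77). The null call was lost with array medians subtracted (adjusted p = 0.0691), without E18.5 array 2 or 3 or P15 array 2 or 3 of the null (adjusted p up to 0.11) and with a term for the 4 arrays apart on the third component (0.23, adjusted p = 0.278). The second step, P90 minus P15, was 0.11 ± 0.14 (adjusted p = 0.683) in the null and 0.05 ± 0.14 (adjusted p = 0.829) in wild type. From E18.5 to P90 it rose by 0.55 ± 0.14 (adjusted p = 0.00549) in the null and differed by 0.26 ± 0.14 (adjusted p = 0.15) in wild type, where the sign turned (-0.08) with array medians subtracted. Its most similar genes were Sbds, Ccdc28a and Ndufaf5 (r = 0.94, 0.909 and 0.903).

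Gjb1 (probe set 10601161), whose human counterpart is mutated in an inherited neuropathy of Schwann cells, lies on the X chromosome and was under the dim guide at E18.5. At E18.5 the Gjb1 level was 3.26, 3.84 and 3.22 in the null arrays, against 3.26, 2.85 and 3.45 in the wild-type arrays. At P15 it was 3.37, 3.48 and 3.76 in the null, against 3.73, 3.71 and 3.92 in wild type. At P90 it was 3.64, 3.96 and 3.85 in the null, against 3.65, 3.96 and 3.93 in wild type. All 6 groups overlapped with their neighbours in the order of means, and the E18.5 means of both genotypes lay under the dim guide. The first step, P15 minus E18.5, was 0.09 ± 0.18 (adjusted p = 0.711) in the null and 0.60 ± 0.18 (adjusted p = 0.0124) in wild type, and the steps differed by -0.51 ± 0.25 (95% interval -1.04 to 0.03, adjusted p = 0.605). The wild-type rise was lost without E18.5 array 2 (0.43, adjusted p = 0.0734) or P15 array 3 (0.53, adjusted p = 0.0519) of that genotype. P90 minus P15 was 0.28 ± 0.18 (adjusted p = 0.347) in the null, or 0.79 in the values as deposited, where it was called, and 0.06 ± 0.18 (adjusted p = 0.839) in wild type. Over the whole span it was 0.38 ± 0.18 (adjusted p = 0.098) in the null and 0.66 ± 0.18 (adjusted p = 0.00556) in wild type. The null value was called without E18.5 array 2 (0.58, adjusted p = 0.0116) and in the values as deposited (1.16, adjusted p = 9.9e-05), where the all-gene median moved by 0.67. Sex-linked signal differed between the P90 groups: Xist, the RNA of the inactive X chromosome, was 7.42 to 7.91 in the null, against 1.86 to 3.33 in wild type. The mean of the Y-linked genes was 2.00, 5.44 and 5.49 in the P90 null arrays, against 6.12 to 6.32 in wild type, so null arrays 2 and 3 held both signals, as did all 6 E18.5 arrays. With a sex score in the fit, the P90 null minus wild-type difference of Gjb1 was 0.27 (adjusted p = 0.981) in place of -0.03 and its wild-type whole-span rise was 0.42 (adjusted p = 0.201). Its most similar genes were Ndufb9 (r = 0.886) and Cyc1 (r = 0.865), which encode subunits of the respiratory chain, and Asb16 (r = 0.871).

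Myelin genes did not all move in 1 direction. Of 5 shared myelin markers, Mbp and Mag, both constituents of myelin, were among those that rose from E18.5 to P15: Mbp by 1.41 ± 0.07 in the null and 1.69 ± 0.07 in wild type. The Mag mean at P15 was 5.30 in the null and 5.73 in wild type, against levels under the dim guide at E18.5 in both genotypes. Sox10, a transcription factor of glia, fell (-0.82 ± 0.11 in the null, -0.74 ± 0.11 in wild type). Of 5 peripheral myelin markers, 2 rose and 1 fell in the null, and 1 fell in wild type. Ncmap, a Schwann cell membrane protein, was the one that fell (-0.92 ± 0.12 in the null, -1.25 ± 0.12 in wild type). Over the 18 arrays Gjc3 correlated with the peripheral list at r = -0.02 and with the central myelin list at r = 0.74, and Gjb1 with these lists at r = -0.44 and 0.73.

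Gjd2 (probe set 10485979), which encodes the main connexin of electrical synapses between neurons, rose between E18.5 and P15 in both genotypes. At E18.5 the Gjd2 level was 2.93, 3.96 and 3.73 in the null arrays, against 3.60, 3.07 and 3.24 in the wild-type arrays. The P15 level was 4.68, 4.48 and 4.61 in the null, against 5.33, 4.39 and 5.37 in wild type. The P90 level was 4.12, 4.28 and 4.44 in the null, against 4.48, 4.52 and 4.94 in wild type. At P15 wild-type array 2 lay below the null arrays and the other 2 lay above them, so the groups overlapped, and at P90 the null arrays lay just below the wild-type arrays with no overlap. P15 minus E18.5 was 1.05 ± 0.27 (adjusted p = 0.00517) in the null and 1.73 ± 0.27 (adjusted p = 7.74e-05) in wild type. Both calls held under every scaling and every left-out array. The E18.5 wild-type mean, 3.30, lay under the dim guide, and the null mean of 3.54 just above it, so the sizes of these rises are not exact and no fold is given. The second step, P90 minus P15, was -0.31 ± 0.27 (adjusted p = 0.513) in the null and -0.38 ± 0.27 (adjusted p = 0.336) in wild type, and in the null the sign turned (0.11) in the values as deposited. From E18.5 to P90 Gjd2 rose by 0.74 ± 0.27 (adjusted p = 0.0343) in the null and 1.35 ± 0.27 (adjusted p = 0.000581) in wild type; the null call was lost without E18.5 array 1 (0.43, adjusted p = 0.175) or without P90 array 2 or 3 of the null (adjusted p up to 0.101).

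Over the 18 arrays, Gjd2 ran with genes of central and shared myelin, neurons, erythroid cells and B cells. Its most similar genes were Sebox (r = 0.952), Mog (r = 0.952), a protein of oligodendrocyte myelin, and Olig1 (r = 0.919), a transcription factor of oligodendrocytes. The mean of 5 central myelin markers was 2.70 to 2.84 at E18.5, 3.97 to 4.42 at P15 and 4.40 to 4.73 at P90 in the null, and 2.65 to 2.80, 4.24 to 4.97 and 4.43 to 4.94 in wild type. All 5 lay under the dim guide at E18.5 in both genotypes. From E18.5 to P15, 4 of 5 passed the test as higher in each genotype, by amounts that are not exact because their E18.5 levels were that dim. Within P15 wild type, arrays 1, 2 and 3 had list means of 4.54, 4.24 and 4.97, and array 2 was the lowest for Gjd2 too. Over the 18 arrays Gjd2 correlated with the central list at r = 0.88 and with 5 markers that central and peripheral myelin share at r = 0.92, and within groups at 0.68 and 0.65. It correlated with 9 neuronal markers, of which 7 rose in the null and 8 in wild type, at r = 0.84, and at r = 0.24 within groups. Lists of other cells ran as close over the 18 arrays, at r = 0.84 with erythroid markers, 0.84 with B cells and -0.90 with melanocytes. Within groups these were -0.11, 0.11 and -0.54. All 5 central myelin markers had a negative null minus wild-type difference at P15 (median -0.46) and at P90 (median -0.10), and none was called. The part of nerve or brain tissue in the Gjd2 values was not tested.

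**Figure D2:**
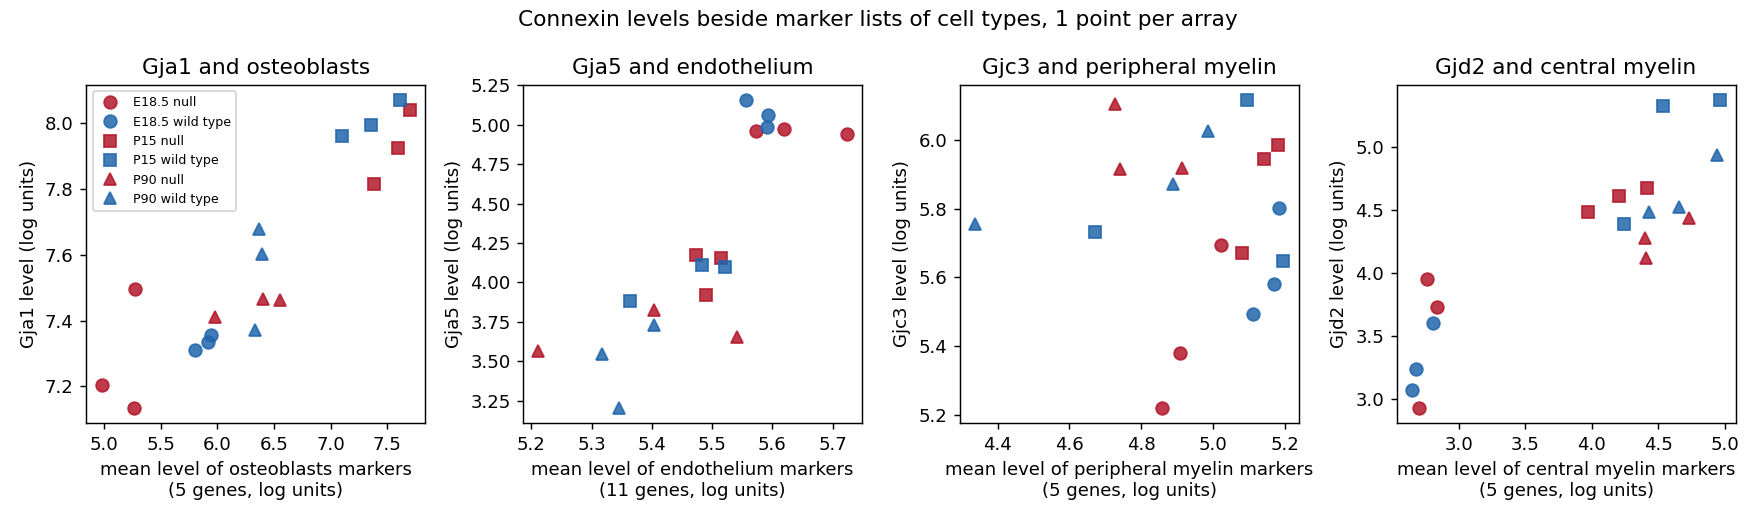
Level of a connexin gene (vertical) against the mean level of a marker list (horizontal), in log units, 1 point per array, coloured by genotype and shaped by age. Over the 18 arrays r is 0.92 for Gja1 with osteoblasts, 0.88 for Gjd2 with central myelin (0.92 with shared myelin), 0.81 for Gja5 with endothelium (0.90 with supporting cells) and -0.02 for Gjc3 with peripheral myelin.

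**Figure D3:**
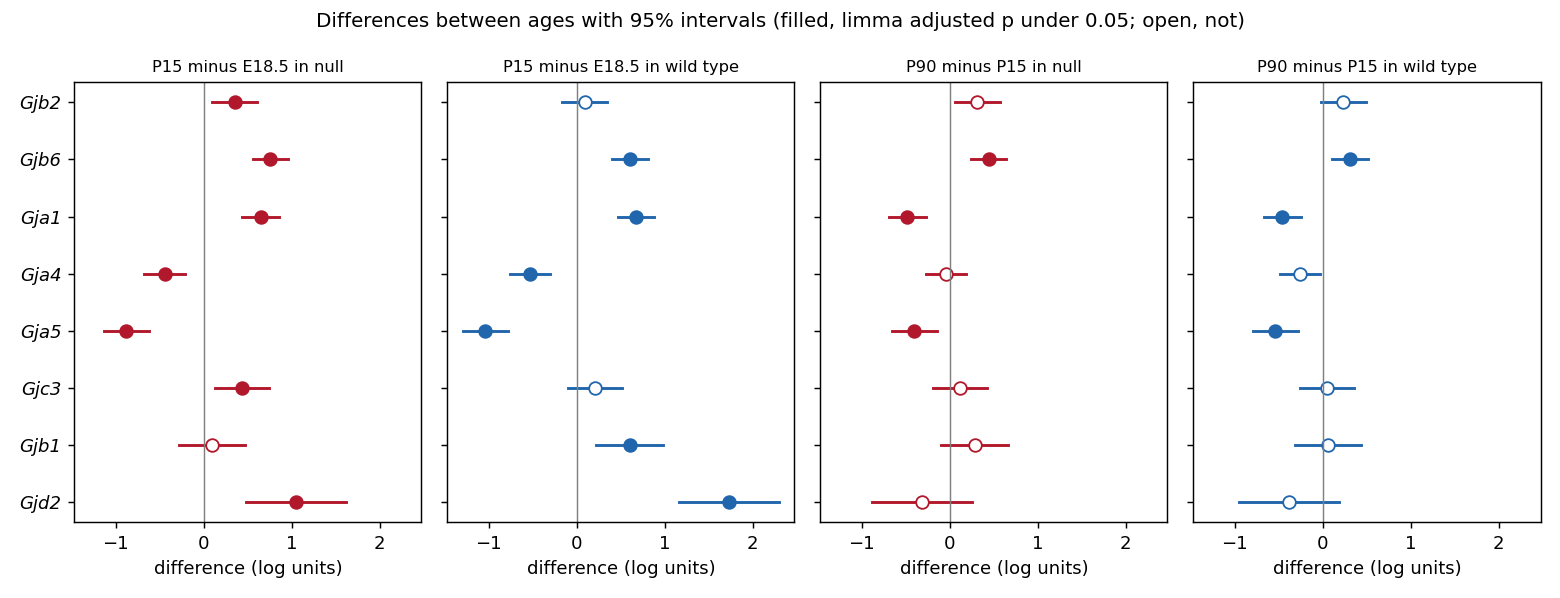
Differences between neighbouring ages in log units (points) with 95% intervals (lines), for each connexin gene in the null and in wild type; filled points passed limma's test at an adjusted p under 0.05. Gja1 is higher at the first step and lower at the second in both genotypes, Gjb6 is higher at both and Gja5 lower at both. Gja5 in the null turned to 0.10 at the second step in the values as deposited, where the all-gene median moved by 0.39. The second Gjb6 step was not called in either genotype with array medians subtracted.

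The genotype comparison asked whether connexin RNA differed in mice without Igf1, which encodes a growth factor needed for inner ear maturation. Of the 24 differences, 8 genes at 3 ages, 0 were called by limma, against 0.0802% of all genes at E18.5, 0.015% at P15 and 0.296% at P90, and 2 had an unadjusted p under 0.05, a level that 12.5% of all genes passed at E18.5, 6.97% at P15 and 11.1% at P90. These were Gjb2 at P90, at 0.29 ± 0.12 (limma, unadjusted p = 0.0316, adjusted p = 0.401), and Gjb6 at P90, at 0.23 ± 0.10 (limma, unadjusted p = 0.0294, adjusted p = 0.395). In both, 2 null arrays lay above all wild-type arrays and the third did not. The P90 groups also differed in sex-linked signal, with Xist called at 4.90 ± 0.80 (adjusted p = 0.0182). The parts of sex and of genotype in these P90 values cannot be told apart. Neither gene was called with or without a sex score in the fit, so that fit does not separate sex from genotype. Leaving out 1 array moved Gjb2 between 0.18 (without P90 null 2) and 0.44 (without P90 null 3) and Gjb6 between 0.17 (without P90 null 1) and 0.34 (without P90 null 3), with adjusted p of 0.0621 or more. The 24 differences ran from -0.44 (Gjd2 at P15) to 0.29 (Gjb2 at P90), and the widest interval bounds were -1.01 and 0.81, both of Gjd2. The Gjd2 value was -0.76 without P15 wild-type array 2 and -0.27 without P15 wild-type array 3. Averaged over the 3 ages, 0 of 8 were called (0.0351% of all genes), and Gjb2 had the lowest adjusted p, 0.668, at 0.14 ± 0.07.

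A few groups did not overlap between genotypes. At E18.5 this held for 1 of 8, Gja5 at -0.11 ± 0.12 (adjusted p = 0.707), while 19.7% of all genes had arrays that did not overlap at that age. At P15 it held for 2 of 8, Gja4 at -0.10 ± 0.11 (adjusted p = 0.949) and Gjb6 at 0.09 ± 0.10 (adjusted p = 0.937), against 16.5% of all genes. At P90 it held for 1 of 8, Gjd2 at -0.37 ± 0.27 (adjusted p = 0.615), against 10.5%. The intervals show what the arrays could not resolve: for Gjd2 at P15 the 95% interval ran from -1.01 to 0.13, for Gja1 at P15 from -0.29 to 0.13. A missed threshold does not show that the genotypes have equal levels.

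**Figure D4:**
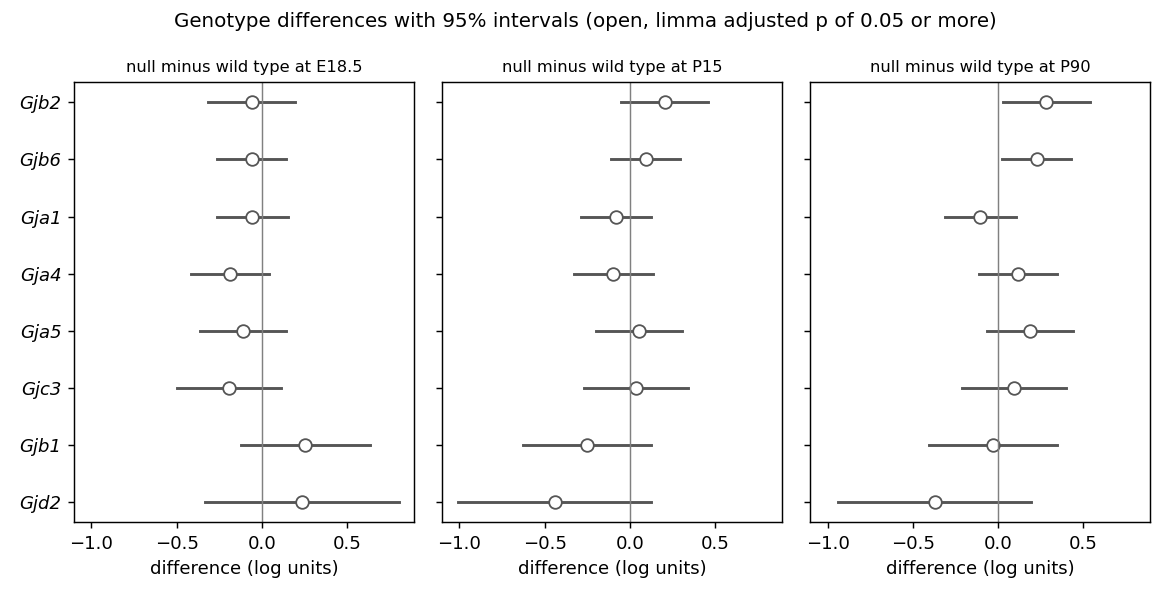
Null minus wild-type difference of each connexin gene (log units, points) with its 95% interval (lines) at E18.5, P15 and P90; every point is open because no difference passed limma's test. The intervals of Gjb2 and Gjb6 at P90 lie above 0 before adjustment, and those of Gjd2 are the widest.

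The test of whether the genotype difference changed over the 3 ages, an F-test of the interaction, called 0 of 8 (lowest adjusted p 0.464, Gjb6), against 0.256% of all genes. For the first step 0 of 8 were called (0.145% of all genes), with Gjb1 lowest at an adjusted p of 0.605. For the second step 0 of 8 were called (0.015%), with Gja4 lowest at 0.21 ± 0.15 (adjusted p = 0.808).

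In the order of group means, Gja1 and Gjd2 had their highest mean in P15 wild type and their lowest at E18.5. Gja4 and Gja5 were highest in E18.5 wild type and lowest in P90 wild type. Gjb2, Gjb6 and Gjc3 were highest in the P90 null and lowest in the E18.5 null. Gjb1 was highest in P90 wild type and lowest in E18.5 wild type. For Gjb6 the arrays of neighbours in the order overlapped only between the P90 groups and between the E18.5 groups, whereas for Gjb1, Gjb2 and Gjc3 all neighbours overlapped. For Gja1 the arrays overlapped between the genotypes at each age. For Gja4 they overlapped between the E18.5 groups, between the P15 null and the P90 null, and between the P90 groups. For Gja5 they overlapped between the genotypes at P15 and at P90. For Gjd2 they overlapped along P15 wild type, P90 wild type and P15 null, and between the E18.5 groups.

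A further 8 connexin genes were analysed beside the members. From E18.5 to P15, 0 of 8 rose and 4 fell in the null, with a median of -0.37, and 0 rose and 3 fell in wild type, with a median of -0.35. Gjc1, which encodes a connexin of smooth muscle and early heart, fell by 0.77 ± 0.11 in the null and 0.98 ± 0.11 in wild type. Gja3, best known from the lens, fell by 0.86 ± 0.13 in the null and 0.65 ± 0.13 in wild type, and lies next to Gjb2 on chromosome 14. Gjd4, known from muscle, fell to means under the dim guide, 2.70 in the P15 null and 2.32 in P15 wild type, against 4.26 and 3.84 at E18.5. Gjd3 had -0.44 ± 0.14 (adjusted p = 0.0207) in the null and -0.27 ± 0.14 (adjusted p = 0.144) in wild type. From P15 to P90 none was called in the null, and in wild type Gjc1 was lower at -0.44 ± 0.11 (adjusted p = 0.0181) and Gjd3 higher at 0.48 ± 0.14 (adjusted p = 0.0295). No other connexin was called between genotypes. The lowest p of the list was that of Gjc1 at P90, at 0.44 ± 0.11 (limma, adjusted p = 0.137), and at E18.5 that of Gja3, at 0.41 ± 0.13 (adjusted p = 0.231). Neither had overlapping arrays, as for 10.5% of all genes at P90 and 19.7% at E18.5. Gjd3 was among those that went the other way at P90, at -0.32 ± 0.14 (adjusted p = 0.41).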

How the data were processed

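RNA levels were measured on 18 Affymetrix Mouse Gene 1.1 ST arrays. One deposited table held a value for each of 28853 probe sets. How the authors summarised the probes and corrected background is unknown here, and natural log is the likely, unstated scale of the deposited values. Deposited array medians ran from 3.88 to 4.82, so arrays were quantile normalised. Of the probe sets, 21789 had 1 symbol, 1621 several and 5443 none in the platform annotation; symbols were updated through gene identifiers to RefSeq, and the probe set with the highest mean stood for a gene. All 19938 genes were fitted in limma 3.58.1 (R 4.3.3) with lmFit and eBayes and 1 mean per group; p-values were adjusted by Benjamini-Hochberg over all genes, and the method was tested on simulated data. The dim guide, 3.49, is the 95th percentile of mean levels of 1194 olfactory and vomeronasal receptor genes. The members, marker lists and tests were chosen with earlier results of these data known. Text names all 8 members, called genes of the connexin and pannexin lists, the 3 genes with the highest correlation to each member, and up to 4 genes of a marker list by smallest p. Within groups, arrays correlated at 0.97 to 0.99. Alternatives were the deposited scale, array medians, other probe sets, a dim filter, another variance prior, only the arrays compared, a replicate block, a sex score, a term for 4 arrays apart, and each array left out; the P90 minus E18.5 comparison was added after seeing the data. The sources used here name no scan date or batch.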

Additional observations from a re-analysis of the deposited data

How the results depend on the processing

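No connexin was called between genotypes under any alternative or left-out array. The count called from P15 to P90 was the least stable: in wild type it was 1 as deposited, and 0 with only the arrays compared, with the sex score and with a term for the 4 arrays apart (3 as reported), and in the null it was 1 with array medians subtracted or only the arrays compared. Leaving out 1 array gave 5 to 7 (null) and 5 to 6 (wild type) for P15 minus E18.5, 2 to 3 and 2 to 4 for P90 minus P15, 5 to 8 and 5 to 7 for P90 minus E18.5, and 0 for genotype and interaction counts. Deviations of same-numbered arrays of the 2 genotypes correlated at r from -0.19 to 0.24, against -0.32 to 0.42 for arrays of unlike number. With 3 arrays a group, this cannot show whether the numbers pair arrays. The replicate block lost 1 call, Gja5 P90 minus P15 in the null (-0.40, adjusted p = 0.0556), and moved no other. Signs that turned, as deposited: null minus wild type at P15 Gjc3 (-0.039), at P90 Gja1 (0.059) and Gjb1 (0.11), null P90 minus P15 Gja4 (0.47), Gja5 (0.10) and Gjd2 (0.11), wild-type Gja4 (0.18), and null P90 minus E18.5 Gja4 (0.33). With array medians subtracted: null minus wild type at P15 Gjc3 (-0.036), wild-type P15 minus E18.5 Gjb2 (-0.01), null P90 minus P15 Gja4 (0.052) and Gjc3 (-0.047), wild-type Gjb2 (-0.073) and Gjc3 (-0.20), null P90 minus E18.5 Gja1 (-0.19), and wild-type Gja1 (-0.37), Gjb2 (-0.083) and Gjc3 (-0.077). With the sex score: Gjb1 null minus wild type at P90 (0.27) and in wild-type P90 minus P15 (-0.13). With the 4-array term: null minus wild-type Gjc3 at E18.5 (0.009) and P90 (-0.11), and Gjb1 at P90 (0.019). Leaving out 1 array turned null minus wild-type Gja1 at E18.5 (-0.164 to 0.016), Gja5 and Gjc3 at P15 (-0.021 to 0.135 and -0.057 to 0.176), Gjb1 at P90 (-0.129 to 0.059), null P15 minus E18.5 Gjb1 (-0.018 to 0.293) and wild-type P90 minus P15 Gjc3 (-0.04 to 0.19). The causes were not tested. With 3 arrays a group, precision is limited, and Gjb1 and the E18.5 Gjd2 levels lie near the dim guide.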

Other observations

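Pannexins form channels like those of connexins but are a separate family, and connexin-binding proteins anchor or sort connexins. A list of 9 such genes was analysed. Panx3, a pannexin of bone and cartilage, fell from P15 to P90 to means under the dim guide, 3.26 in the null and 2.82 in wild type, against 5.74 and 5.59 at P15 (adjusted p = 1.96e-05 and 1.05e-05). Panx1, a widely expressed pannexin, fell by 0.87 ± 0.09 in the null and 0.70 ± 0.09 in wild type. At the same step all 5 osteoblast markers fell in both genotypes, and the part of bone content was not tested. From E18.5 to P15, Panx2, known from neurons, rose by 0.48 ± 0.14 in the null and 0.46 ± 0.14 in wild type, and Cnst, which sorts connexins to the membrane, by 0.66 ± 0.09 in the null and 0.48 ± 0.09 in wild type. Nedd4, a ubiquitin ligase that acts on Gja1 protein, fell by 0.25 ± 0.07 in the null and 0.41 ± 0.07 in wild type. Tjp1, a scaffold of cell junctions, had the lowest p of the list between genotypes at P90, at 0.32 ± 0.08 (adjusted p = 0.127), with arrays that did not overlap. None of the 9 was called between genotypes at any age.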
